A study of Marmota monax with 7 samples.

Results

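Hepatocytes make and secrete most of the proteins of blood plasma, among them the carriers of lipid, the factors of clotting and clot removal, complement and the inhibitors of proteases. Their messages are abundant in liver, and some of them, such as the acute phase reactants, are known to rise and fall with inflammation or feeding. The genes described here are 10 of this kind: APOB and APOE of lipoproteins, the fibrinogen chains FGB and FGG, coagulation factor F10, plasminogen (PLG), complement component C5, the inter-alpha-trypsin inhibitor heavy chain ITIH3, the insulin-like growth factor binding protein IGFBP1, and the acute phase protein SAA1. They were chosen by name, as every probe whose platform annotation gives exactly 1 of these symbols. That gave 11 probes for 10 of the 3011 genes named on the array, since FGB has 2 probes from different cDNA clones and each other gene has 1.

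The measurement was the spot intensity of 5544 probes on membrane arrays made for human genes, hybridised with total RNA from normal liver of adult woodchucks (Marmota monax), a marmot used as a model of hepatitis B. The groups are 7 loads of RNA, namely 0.1, 0.25, 0.5, 1, 2, 5 and 10 µg, each hybridised once to a membrane of the same lot, and share tissue, age class and health. The question is how the load sets the signal when RNA and array come from different species, where a probe reads woodchuck RNA only as far as it pairs with the human clone. Whether separate animals or extractions were used is not stated, so every test below speaks only of how far 7 arrays scatter around a fitted line. Precision is limited by there being 7 of them.

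The 1st percentile of each array served as its background, since no blank spots were marked. It was 1329 at 0.1 µg and 3550 at 10 µg, while the array median was 1629 and 16151.5. Among cell-bound hepatocyte markers, 4 of 6 measured genes read at least 2 times this background at 10 µg, including ASGR1, a subunit of the asialoglycoprotein receptor (205358), named after its values were seen. PCK1 of gluconeogenesis (5801) and TDO2 of tryptophan breakdown (6919) did not. For Kupffer cells 3 of 3 measured markers read above background, for red cells 3 of 3, for lymphocytes 2 of 2, for endothelium 3 of 3, for stellate cells 1 of 1 and for bile duct 2 of 3, next to 82.3% of all named genes. ALB, the most abundant plasma protein of liver, was among the plasma proteins listed for comparison but had no probe with that symbol alone.

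In the RefSeq gene table of the woodchuck assembly Marmota_monax_Labrador192_F-V1.1, 9 of the 10 symbols have an entry, all protein-coding, and SAA1 was not matched. Fgg, Fga and Fgb stand next to one another in that table, Apoe stands between Apoc1 and Tomm40, Itih3 between Itih1 and Itih4, and Igfbp1 beside Igfbp3.

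APOB and APOE, both lipid carriers, read above background from the smallest amount of RNA. APOB, the structural protein of very-low-density lipoprotein, read 21355 at 0.1 µg, 47165 at 0.25 µg, 122851 at 0.5 µg, 344066 at 1 µg, 920602 at 2 µg, 5502046 at 5 µg and 6312172 at 10 µg. Each larger amount gave a higher reading, and the lowest of the 7 was already 16.1 times the background of its array. APOE, a ligand of the low-density lipoprotein receptor, read 11618, 15531, 43782, 113967, 296416, 2559850 and 1778502 in the same order of amounts. Its 5 µg array was the highest and stood above the 10 µg array, and its lowest ratio to background was 8.74.

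ITIH3, a heavy chain of a plasma protease inhibitor that also binds hyaluronan, was the only other gene of the 10 that read above background at every amount. Its probe read 2871, 3374, 8166, 17003, 34952, 267721 and 352881 from 0.1 to 10 µg. At 0.1 µg this was 2.16 times the background, close to the limit of 2 used here, and at 10 µg 99.4 times.

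**Figure D1:**
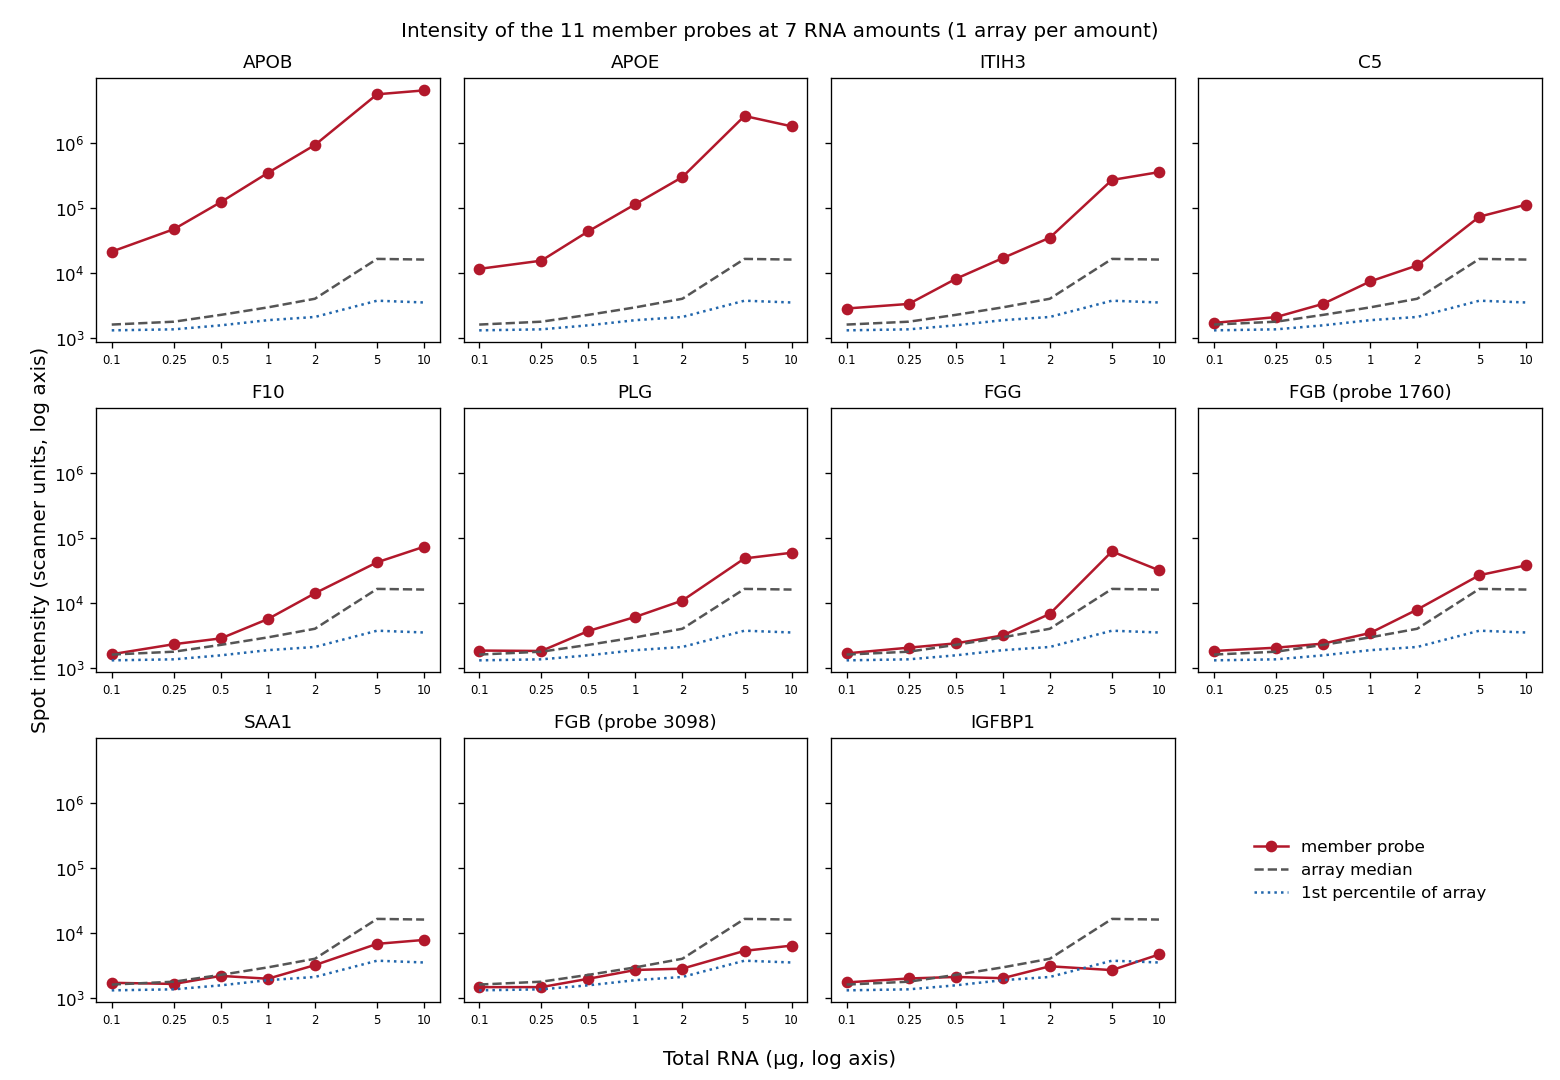
Spot intensity (log axis, scanner units) of each of the 11 probes against total RNA in µg (log axis), with 1 array per amount, beside the array median (dashed) and the array's 1st percentile (dotted). APOB and APOE lie far above both lines at every amount, while the second FGB probe, SAA1 and IGFBP1 stay near the dotted line throughout.

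C5, the complement component cleaved to start the membrane attack complex, needed more RNA to leave the background. It read 1726, 2123, 3388, 7467, 13129, 73308 and 112470 from 0.1 to 10 µg, and passed 2 times the background at 0.5 µg and at each larger amount. PLG, the precursor of the clot-dissolving protease plasmin, read 1877, 1850, 3741, 6156, 10953, 48438 and 59144. It too was above background from 0.5 µg on, and its readings at the 2 smallest amounts were nearly equal.

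F10, whose active form cleaves prothrombin, read 1648, 2349, 2883, 5710, 14172, 42248 and 73194, rising at each step and above background from 1 µg. The gamma chain of fibrinogen, FGG, read 1699, 2078, 2420, 3200, 6852, 61939 and 31930. Its 5 µg array was the highest and its 10 µg array the next, and signal was above background from 2 µg.

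The beta chain, FGB, was read by 2 probes. Probe 1760 read 1851, 2077, 2399, 3490, 7978, 26814 and 38054, and was above background from 2 µg. Probe 3098 read 1488, 1489, 1999, 2725, 2857, 5353 and 6437. It rose at each step too, but never reached 2 times the background, with a highest ratio of 1.81 at 10 µg.

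SAA1, a serum amyloid A of the acute phase, read 1734, 1666, 2213, 2002, 3238, 6852 and 7874, and only its 10 µg array was above background, at 2.22 times. IGFBP1, which binds insulin-like growth factors and is known to respond to insulin and fasting, read 1758, 2018, 2132, 2040, 3105, 2714 and 4710. It was above background on none of the 7 arrays. At 5 µg it was below the array's 1st percentile (3782), at 0.718 times it. Each probe is set against the background of its own array and not against the level of another gene, because pairing with the woodchuck message may differ from clone to clone.

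Counted over the 11 probes, 3 were above background at 0.1 µg (8.64% of all probes) and 3 at 0.25 µg (12% of all). The count was 5 at 0.5 µg (19.4%), 6 at 1 µg (31.2%), 8 at 2 µg (47.6%), 8 at 5 µg (77.1%) and 9 at 10 µg (78.8%). On at least 1 array 9 of 11 were above background, next to 84.6% of all probes, so at the larger amounts the share was near that of the array at large. With a limit of 1.5 times the background 7 of 11 passed at 0.25 µg (26.5% of all probes) and 8 at 0.5 µg (43.8%), and with 3 times 3 passed at 0.5 µg (11.5%). With 1 array per amount these counts have no replicate check.

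**Figure D2:**
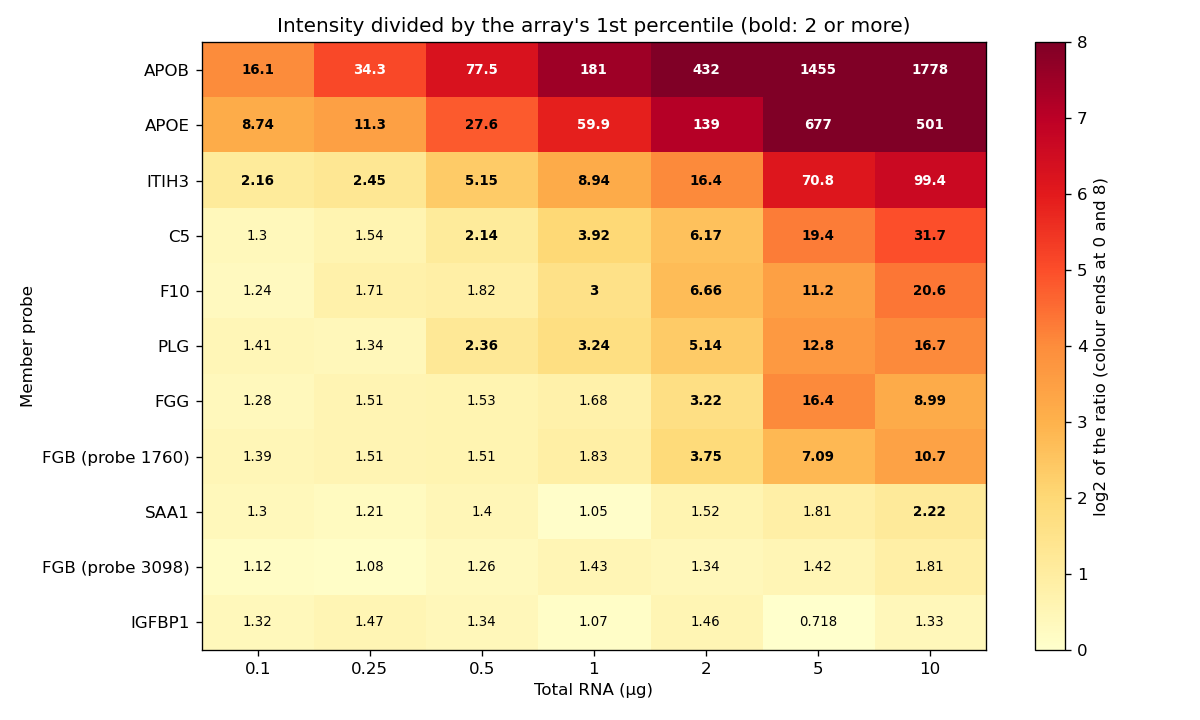
Intensity of each probe (rows) at each amount of RNA (columns, µg) divided by the 1st percentile of the same array, with ratios of 2 or more in bold and the colour on a log2 scale. The entry into bold moves from 0.1 µg for APOB, APOE and ITIH3 through 2 µg for FGG and FGB probe 1760 to 10 µg for SAA1, and FGB probe 3098 and IGFBP1 have no bold cell.

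Intensity as deposited, background included, rose with RNA for each of these genes. The background itself was 2.67 times higher at 10 than at 0.1 µg, and the reading of IGFBP1 2.68 times. For that gene the rise as deposited cannot be told from that of the background. A line of log2 intensity on log2 amount was fitted to every probe with limma, and 11 of 11 probes rose, as did 99.9% of all probes (Benjamini-Hochberg 0.05). An exact two-sided permutation over all orders of the amounts, adjusted over all probes, also called 11 of 11, next to 99% of all. A slope of 1 means that signal doubles when RNA doubles. APOB had a slope of 1.35 ± 0.09 (SE, 7 arrays), APOE 1.28 ± 0.11 and ITIH3 1.16 ± 0.10. C5 followed with 0.99 ± 0.10, F10 with 0.88 ± 0.09, PLG with 0.85 ± 0.09 and FGG with 0.79 ± 0.13. FGB probe 1760 had 0.73 ± 0.10, and the slopes near background were 0.37 ± 0.08 for SAA1, 0.34 ± 0.07 for FGB probe 3098 and 0.18 ± 0.07 for IGFBP1. The median slope of all probes was 0.57. Limma adjusted p-values ran from 1.48e-07 (APOB) to 0.0296 (IGFBP1). The call for IGFBP1 was lost without the array of 0.25 µg (limma adjusted p = 0.0740), of 0.5 µg (0.0602) or of 10 µg (0.243).

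The slopes of APOB, APOE, ITIH3, C5, F10, PLG, FGG and FGB probe 1760 lay closer together once background was taken off. Each array's 1st percentile was subtracted, and differences under 10% of it were set to that floor. C5 then had a slope of 1.31 ± 0.12 (SE, 7 arrays), next to 1.36 ± 0.12 for APOB, 1.31 ± 0.14 for APOE and 1.30 ± 0.13 for ITIH3. F10 had 1.21 ± 0.12, PLG 1.15 ± 0.13, FGG 1.12 ± 0.16 and FGB probe 1760 1.02 ± 0.13. These 8 probes stood above the floor on all arrays, as did 67.9% of all probes. Passing this floor does not mean being above background. APOB, APOE and ITIH3 were above background at every amount. At 0.1 µg F10 read 1.24 times the background, FGG 1.28 times, FGB probe 1760 1.39 times and PLG 1.41 times. Neither these nor C5 were above background at that amount, so their subtracted slopes rest in part on readings near background. The slope of APOB went from 1.35 to 1.36, and that of C5, which read 1.30 times the background at 0.1 µg, from 0.99 to 1.31.

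The 3 probes that met the floor had the shallowest slopes. FGB probe 3098, at the floor on the 0.25 µg array, had 0.66 ± 0.12 (SE, 7 arrays), and SAA1, at the floor on the 1 µg array, had 0.59 ± 0.16. IGFBP1 was at the floor on the arrays of 1 and 5 µg, and its slope was 0.12 ± 0.15. Without the 5 µg array this slope was 0.19 and without the 10 µg array -0.02. Against a slope of 0, 10 of 11 probes rose by limma, as did 95.3% of all, and IGFBP1 did not pass (limma adjusted p = 0.439). With a floor of 0.5 of the percentile IGFBP1 passed as well (limma adjusted p = 0.0108), and without the arrays of 5 and 10 µg together SAA1 did not (0.403), a setting chosen after the data were seen.

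**Figure D3:**
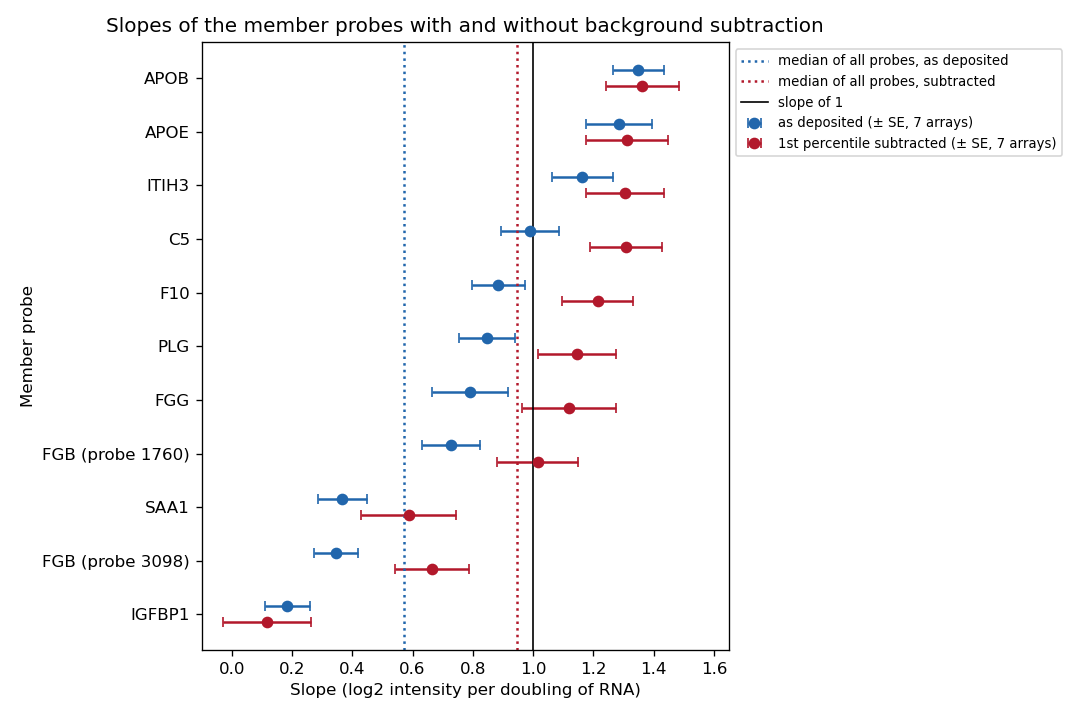
Slope of log2 intensity per doubling of RNA for each probe, as deposited (blue) and after subtraction of the array's 1st percentile (red), with bars of 1 SE from the limma fit over 7 arrays and the median of all probes dotted (0.57 and 0.94). The solid line marks a slope of 1. Subtraction moved C5, F10, PLG, FGG and FGB probe 1760 to the line or beyond it, while SAA1, FGB probe 3098 and IGFBP1 stayed below.

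Proportion between signal and RNA was tested as the difference of these slopes from 1. By limma 0 of 11 probes passed above 1 (2.29% of all probes) and 1 passed below (14.9% of all), which was IGFBP1 (adjusted p = 0.00228). Its signal never left the background. Of the 8 probes never at the floor 0 passed above 1 with p-values adjusted over all probes, next to 3.29% of all such probes. At an unadjusted p under 0.05, 4 of the 11 were above 1 (12.7% of all probes) and 3 below (24.4%). The 95% interval of the slope was 1.10 to 1.62 for APOB, 1.02 to 1.60 for APOE, 1.03 to 1.58 for ITIH3 and 1.05 to 1.57 for C5, while adjusted p-values were 0.0519, 0.113, 0.102 and 0.0807. For FGB probe 1760 the interval was 0.73 to 1.30, for FGG 0.78 to 1.45, for PLG 0.87 to 1.42 and for F10 0.96 to 1.47, all of which include 1.

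This call moved with the setting. With a variance trend in limma, APOB, APOE, ITIH3 and C5 passed above 1 (adjusted p = 0.00978, 0.0347, 0.0363 and 0.0421), as did 11% of all probes. With a floor of 0.5 of the percentile APOB and ITIH3 did, and the count over all probes for that floor is given in the closing section. Without any 1 array 0 of the 11 passed above 1, and SAA1 passed below it without the array of 1 µg (limma adjusted p = 0.0469). The share of all probes below 1 without that array is not given here. Over all probes the 127 above 1 became 8, 2, 15, 51, 27, 77 and 4 without the arrays of 0.1, 0.25, 0.5, 1, 2, 5 and 10 µg, so each array moved that count by over 1.5 times. The 824 below 1 became 166 without 0.1 µg, 496 without 0.25 µg and 309 without 10 µg.

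Against the median of the same array, the genes parted into gains and losses that depended on the scaling. With median centring limma called 8 probes as rising (33.9% of all) and 3 as falling (30.9% of all). APOB rose by 0.79 ± 0.06 log2 units per doubling (SE, 7 arrays), APOE by 0.72 ± 0.07, ITIH3 by 0.60 ± 0.05 and C5 by 0.43 ± 0.05. With division by the median absolute deviation APOB and APOE fell, as did 389 of all 5544 probes, and ITIH3 and C5 did not pass. With median centring F10 rose by 0.32 ± 0.06, PLG by 0.28 ± 0.05 and FGG by 0.23 ± 0.07, while none of the 3 passed with centring on the 75th percentile. The slope of FGG was 0.15 without the 5 µg array and 0.35 when centred within 2 parts of the probe numbers. FGG missed the exact permutation test (adjusted p = 0.0538). FGB probe 1760 rose by 0.16 ± 0.05, did not pass within 2 parts of the probe numbers (limma adjusted p = 0.322) or without the array of 10 µg (limma adjusted p = 0.101), and had a slope of -0.06 with the 75th percentile. The 3 falls with median centring were IGFBP1 at -0.38 ± 0.08, FGB probe 3098 at -0.22 ± 0.06 and SAA1 at -0.20 ± 0.05. None of these 3 passed with the median absolute deviation, where FGB probe 3098 stood at 0.0012 in units of that deviation per doubling. After quantile normalization 0 of 11 passed in either direction by limma, with 1 above and 1 below 0 at an unadjusted p under 0.05. Centring on the 75th percentile moved the median slope of all probes from 0.01 to -0.22.

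The 2 FGB probes, which carry the same symbol, could be set against each other as a ratio within each array. Probe 3098 was above background on 0 of the 7 arrays, and the part of its low signal in the comparison was not tested. The log2 ratio of probe 1760 to probe 3098 grew by 0.38 ± 0.08 per doubling (SE, 7 arrays), with a limma adjusted p of 0.00125 over the 392 pairs of probes that share a symbol on this array. Of those pairs, 223 had unequal slopes, or 56.9%. After background subtraction the difference was 0.35 and did not pass (limma adjusted p = 0.122), and 106 of the 392 pairs did. Probe 1760 lies among the lower probe numbers and probe 3098 among the upper, when these are split into 2 equal parts. The upper part was dimmer, with a median of 9241.5 against 25485.5 at 10 µg, and it also holds SAA1, FGG and IGFBP1. Centred within each part, 7 of 11 probes rose (32.7% of all) and 1 fell (25.2% of all), and the slopes of FGB probe 3098 (-0.09) and SAA1 (-0.07) no longer passed (limma adjusted p = 0.125 and 0.199). The part of probe position in these slopes was not tested further.

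The steps between neighbouring arrays were uneven. From 0.1 to 0.25 µg PLG and SAA1 read lower, 2 of 11 probes next to 22.5% of all, and from 0.5 to 1 µg SAA1 and IGFBP1 did, 2 of 11 next to 7.56%. From 0.25 to 0.5 µg 0 of 11 were lower (7.81% of all), and from 1 to 2 µg 0 of 11 (10.2% of all). From 2 to 5 µg, where RNA differed 2.5-fold, FGG differed 9.04-fold, APOE 8.64-fold, ITIH3 7.66-fold, APOB 5.98-fold and C5 5.58-fold, against a median of 3.54-fold over all probes. PLG differed 4.42-fold, while FGB probe 1760 (3.36-fold), F10 (2.98-fold), SAA1 (2.12-fold) and FGB probe 3098 (1.87-fold) were below that median. IGFBP1 was lower at 5 than at 2 µg (0.874-fold), as were 0.144% of all probes. From 5 to 10 µg the readings of APOE (0.695-fold) and FGG (0.516-fold) were lower, 2 of 11 probes next to 43.5% of all. F10 differed 1.73-fold and C5 1.53-fold over the same step, in which RNA differed 2-fold and the median probe 1.07-fold. Of the 11 probes 6 read higher at each larger amount (APOB, ITIH3, C5, F10 and both FGB probes), next to 35.5% of all.

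**Figure D4:**
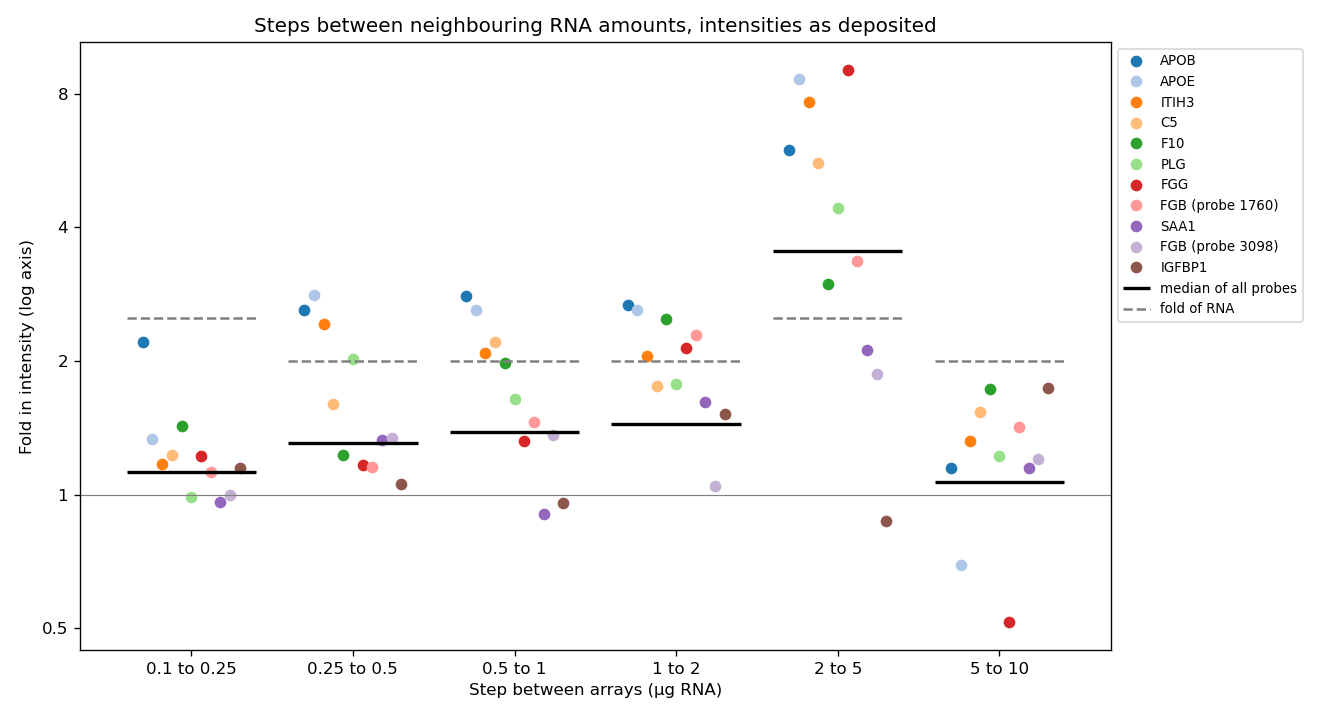
Fold in intensity, as deposited, between neighbouring amounts of RNA (log axis) for the 11 probes (points), with the median of all probes (black bar) and the fold in RNA (grey dashes). All points lie below the grey dashes from 0.1 to 0.25 µg, the step from 2 to 5 µg reaches 9.04-fold for FGG, and APOE and FGG lie below 1 from 5 to 10 µg.

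Signal per µg of RNA, after subtraction of background, was highest at 5 µg for 7 of the 11 probes. These were the probes of APOB, APOE, ITIH3, C5, F10, PLG and FGG. The share over all probes is not given here, so this count cannot be set against the array at large. As deposited, the array median was itself higher at 5 µg (16520) than at 10 µg (16151.5). In intensity as deposited, a 5 µg array above the 10 µg array was thus not particular to these genes. That median includes background and is not divided by the amount, so it is another measure than signal per µg. APOB gave 200260 per µg at 0.1 µg, 183152 at 0.25 µg, 242530 at 0.5 µg, 342164 at 1 µg, 459236 at 2 µg, 1099653 at 5 µg and 630862 at 10 µg. APOE gave 102890 per µg at 0.1 µg, 147143 at 2 µg, 511214 at 5 µg and 177495 at 10 µg. ITIH3 gave 15420, 16411, 52788 and 34933 per µg at those amounts. FGG gave 2361 per µg at 2 µg, 11631 at 5 µg and 2838 at 10 µg. The other 4 probes, both of FGB and those of SAA1 and IGFBP1, had their highest yield at 0.1 µg. None of them was above background at that amount, so these yields rest on readings near background. The ratios were 1.39 for FGB probe 1760, 1.12 for FGB probe 3098, 1.30 for SAA1 and 1.32 for IGFBP1. Without the 5 µg array the subtracted slope of APOB was 1.29, that of APOE 1.19 and that of ITIH3 1.22.

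Other plasma proteins, in lists by role that leave out the 10 genes, covered 32 measured genes of 105 listed. All 32 rose as deposited (limma, 99.9% of named genes), and 30 read above background at 10 µg, next to 82.3% of named genes. At 1 µg 8 of the 32 were above background, next to 35.3% of named genes, and at 0.1 µg 0 of the 32 were, next to 9.4%. After background subtraction 0 of the 32 had a slope above 1 by limma (2.52% of named genes) and 2 had one below (12.3%). Their median slope was 1.04, that of the 10 genes, FGB by its probe 1760, 1.18, and that of all named genes 0.98. Never at the floor were 19 of the 32, 8 of the 10 and 2150 of the 3011 named genes.

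Among 3 other lipid carriers the subtracted slope ran from 0.94 ± 0.17 (SE, 7 arrays) for LCAT, which esterifies plasma cholesterol, to 1.28 ± 0.15 for APOC2, the activator of lipoprotein lipase. Among 4 other clotting genes it ran from 1.01 ± 0.14 for F2, prothrombin, to 1.34 ± 0.14 for F8, which was at the floor on 1 array. Among 7 complement genes it ran from 0.62 ± 0.17 for C6 to 1.30 ± 0.16 for C2. None of these 6 differed from 1 by limma (adjusted p from 0.100 to 0.968).

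Among 4 other protease inhibitors ITIH2, a relative of ITIH3, had a subtracted slope of 0.61 ± 0.13 (SE, 7 arrays), below 1 by limma (adjusted p = 0.0450), and SERPIND1, an inhibitor of thrombin, had 1.11 ± 0.14. Among 13 transport and binding proteins the slope ran from 0.52 ± 0.13 for SERPINA6, the carrier of corticosteroids, to 1.34 ± 0.14 for RBP4, the carrier of retinol. SERPINA6, at the floor on 1 array, was also below 1 by limma (adjusted p = 0.0262). It never reached 2 times the background, with 6202 at 10 µg against a limit of 7100. ITIH2 passed that limit at 10 µg (8118) but stayed under 2 times the background at every smaller amount. The slopes of both thus rest on readings near background. LCN2 was the sole other gene measured from the list of acute phase reactants used here, at 1.20 ± 0.17.

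The relatives of IGFBP1, singled out after their values were seen, were above background at 10 µg but not at 0.1 µg, where the limit was 2658. IGFBP2 read 2400 at 0.1 µg and 306197 at 10 µg, with a subtracted slope of 1.29. IGFBP3 read 1722 and 25046, with a slope of 0.87.

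The genes most like the lipid carriers over the 7 arrays were not plasma proteins. By Pearson correlation of median-centred log2 signal, given as a description over 7 arrays that all probes share, PDXDC1 (r = 0.9995) and FBXL17 (r = 0.9993) were nearest to APOB, and TSC2 (r = 0.998) and DCAF8 (r = 0.998) nearest to APOE. UBE2J1 and KIAA0232 (r = 0.994 each) were nearest to IGFBP1. Such values were common, as 715 of 3010 other genes had r above 0.9 with APOB, 739 with APOE and 587 with IGFBP1.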

How the data were processed

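Each of 7 arrays has 1 deposited intensity per probe for 5544 probes, a linear scanner value, whole and positive. The sources used here give no scanner, background correction or normalization by the authors, and array medians differ, so none was assumed. Probes were named from the platform annotation, in which 3346 have 1 symbol, 95 several and 2103 none. The files name no genome build.

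Intensities were log2 transformed, and limma 3.58.1 in R 4.3.3 fitted log2 signal on log2 RNA amount over all probes (Benjamini-Hochberg 0.05): as deposited, centred on each array's median, and after subtraction of each array's 1st percentile with a floor of 10% of it, tested against 0 and 1. An exact permutation used all orders of the amounts. Above background means at least 2 times the 1st percentile. Genes with several probes were represented in the lists by the brightest. The fit was tested on simulated data. Tables and plots used Python 3.11.15, numpy 2.4.6, pandas 2.3.3 and matplotlib 3.10.9.

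The genes, lists, tests and named genes were chosen with earlier results of these data known. The rule named all 11 probes, in each list the steepest and shallowest other gene (of the marker lists, the text gives only PCK1) and for 3 genes the 2 most alike. ASGR1, TDO2, IGFBP2 and IGFBP3 were named after their values were seen. Alternatives were other backgrounds, floors, centrings, a variance trend, a dim-probe filter, each array left out and, added later, both 5 and 10 µg left out. No array was left out of the main fits.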

Additional observations from a re-analysis of the deposited data

How the results depend on the processing

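No paired analysis was possible because each amount has 1 array. With the array median, the dim-probe filter left 841 probes and 1 of the 11 described that fell, since IGFBP1 and FGB probe 3098 were filtered out. Centring on the 75th percentile gave 856 rises and 3212 falls, with 4 of the 11 rising and FGB probe 1760 at -0.062, and centring in 2 parts gave 1 fall among the 11 (25.2% of all probes). With the median absolute deviation 4 probes rose and 389 fell and 0 of the 11 rose by limma (0 at an unadjusted p under 0.05). These slopes are in units of each array's median absolute deviation per doubling, not log2 units. In those units APOB stood at -3.88, APOE at -2.69, ITIH3 at -0.48 and FGB at -0.036 (probe 1760) and 0.0012 (probe 3098). Quantile normalization gave 0 rises and 0 falls by limma (403 and 401 at an unadjusted p under 0.05) and 0 and 0 among the 11 (1 and 1), with APOB at -0.022, APOE at -0.034, ITIH3 at -0.023 and FGB probe 1760 at -0.025. The cause was not tested.

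Against a slope of 1, leaving out each array gave 2 to 77 probes above, 166 to 1186 below and 1 to 2 of the 11 below. A variance trend gave 609 above, 4 of them among the 11. The 5th percentile gave 2 of the 11 below. The lowest intensity gave 388 above, with 1 of the 11 above and 3 below. Background in 2 parts gave 1 of the 11 above. In the main fit 2.29% of all probes were above and 14.9% below. Apart from the 388, counts over all probes with these backgrounds are not given here, so these counts of the 11 cannot be set against the array at large. A floor of 0.5 of the percentile gave 547 above and 2439 below, with 2 and 3 of the 11, and a floor of a 50th part 7 above and 314 below. Leaving out probes at the floor gave 212 above and 366 below of 3766, with 1 and 0 of 8. Without 5 and 10 µg, chosen after the data were seen, 10 were above and 1573 below, 2 of them among the 11, and against 0 a single probe (1) fell. The slopes against 0 and the rises as deposited otherwise stayed within 1.5 times their counts in every setting run. Pairs with unequal slopes numbered 106 after subtraction, and 196 to 243 without single arrays. Above background were 7 of the 11 at 0.25 µg (26.5% of all probes) and 8 at 0.5 µg (43.8%) with 1.5 times, and 3 at 0.5 µg (11.5%) with 3 times. Signal over background limits all values of SAA1, IGFBP1 and FGB probe 3098. It also limits the readings of C5, F10, PLG, FGG and FGB probe 1760 at the smallest amounts, and so their subtracted slopes and intervals.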
